A study of Arabidopsis thaliana with 2 samples.

Results

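Plants take up sulfur as sulfate through SULTR membrane carriers. ATP sulfurylase (APS) activates sulfate to adenosine 5′-phosphosulfate, and there the pathway forks. On the reductive branch, APS reductase (APR) and then sulfite reductase (SIR) yield sulfide for cysteine. On the other branch, APS kinase (APK) yields PAPS, the sulfate donor of the sulfotransferases that finish glucosinolates, the sulfur-rich defence compounds of the cabbage family. The 10 genes described here cover these steps: SULTR1;2 (AT1G78000) and SULTR2;1 (AT5G10180) for uptake, APS1 (AT3G22890) and APS3 (AT4G14680) for activation, APR1 (AT4G04610), APR2 (AT1G62180), APR3 (AT4G21990) and SIR (AT5G04590) for reduction, and APK1 (AT2G14750) and APK2 (AT4G39940) for PAPS. They were listed by their known function, with earlier results of these data known, so the counts below are not independent of the data. Each gene was found on the array by its locus name with 1 probe. All 10 of the 25665 loci named on the array passed the filter on dim probes, as did 19059 loci in all.

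The arrays compared inflorescence stems of sgr1 with those of wild type (Col) of Arabidopsis thaliana. The sgr1 mutant is defective in SCARECROW (SCR), a transcription factor needed to form the endodermis, and which allele was used is not stated in the labels. Plants raised on plates for 10 days and then on soil under continuous white light at 23 °C gave stem pieces of 1.5 cm from the elongation zone, taken 0.3 to 1.8 cm below the apex of stems of 5 to 8 cm without their lateral organs, and each RNA sample pooled 10 or more plants. Both genotypes were on each of the 2 arrays, sgr1 in Cy3 and wild type in Cy5 on array 1, with the dyes exchanged on array 2. The labels number the arrays as replicates but do not settle whether they carry separate RNA extracts. The spread between these arrays may thus be technical. The p-values rest mostly on that spread pooled over all genes, and little on the SD of the single gene printed beside them.

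Between 59.2% and 66.5% of the spots of each channel were well above background, and none was saturated. SCR was read first as a check of the labels, although its probe may lie outside the lesion. It had normalized intensities of 1059.5 and 889 in sgr1, against 1862 and 1987 in wild type. Its log2 ratio of sgr1 over wild type was -0.99 ± 0.25 (SD, n = 2; limma, adjusted p = 3.29e-07), lower in sgr1 on both arrays. Of 9 stem markers, 8 were well above background on both arrays in each genotype, among them BP, NST1 and the cellulose synthase genes of secondary walls, while SND1 was above it on none. The stem markers had summed intensities of 50610 and 58440 in sgr1, against 41173 and 41084 in wild type, and a median log2 ratio of 0.30. Of the 8 measured, 3 rose (NST1 0.78, CER6 0.53 and CESA7 0.40) and none fell, beside 9.92% and 8.98% of all genes. The part of the stem markers in the results below was not tested. Of the flower markers AP3, AG and PI, none was above background on any array in wild type, and only PI on 1 array in sgr1, whereas AP1 and SEP3 were above it throughout. The 5 flower markers had summed intensities of 394 and 463 in sgr1, against 370 and 393 in wild type, AP1 rose (0.61) and SEP3 did not pass (-0.04), with a median of 0.29 over these 2; their part in the results was not tested. Both arrays were on 1 slide, so slide could not be tested as a batch. The number of arrays limits the precision of every value below.

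Most of the 10 genes for sulfate uptake, activation, reduction and PAPS formation were more abundant in sgr1 stems. Of the uptake genes among them, SULTR2;1 rose, while SULTR1;2 was not told apart from background in wild type. Of the 10 genes, 7 rose in sgr1 (APK2, SULTR2;1, APR1, APK1, APS1, APS3 and APR3, from 3.72-fold for APK2 to 1.37-fold for APR3), none fell, and 3 did not pass the test (APR2, SULTR1;2 and SIR). The test was limma over all genes, with Benjamini-Hochberg adjustment and a threshold of 0.05. Across the array, 9.92% of genes passed it as higher in sgr1 and 8.98% as lower. The median log2 ratio of the 10 genes was 0.68, and that of all genes tested was 0.0048. Requiring both channels above background left out SULTR1;2 and gave a median of 0.73. Whether the stems held more of the cells that express these genes or more of the transcripts per cell cannot be told apart in whole stem pieces. With array-wide median centring in place of the brightness-dependent loess correction the ratios kept their size (median 0.69), but none of the 10 genes passed (limma, adjusted p = 0.9999).

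On the single arrays the median of the 10 genes was 0.50 on array 1 and 0.78 on array 2. Of the 10, 9 had a ratio above 0 on both arrays, where 33.6% of all genes did. SULTR1;2 is among these 9, although it passed the filter only through its sgr1 signal, which favours a ratio above 0. In 8 of the 10 genes both sgr1 intensities lay above both wild-type intensities, which held for 29.6% of all genes. A rule of size that needs no pooled spread, at least 2-fold higher on both arrays, was met by SULTR2;1 and APK2, and by 0.777% of all genes.

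**Figure D1:**
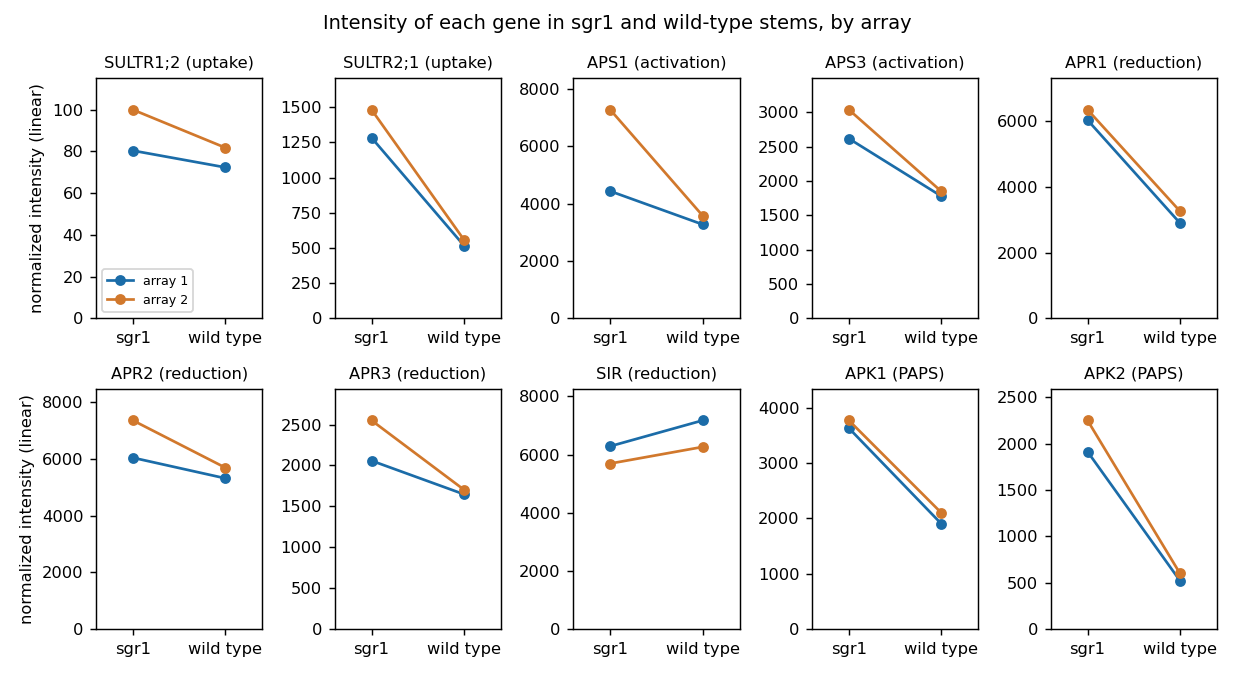
Normalized intensity (linear scale, from 0) of each of the 10 genes in sgr1 and in wild type; each line joins the genotypes of 1 array. In 8 panels both sgr1 points lie above both wild-type points; SULTR1;2 and SIR overlap.

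For uptake, the genes measured were those of a root carrier and of a carrier of the vasculature. SULTR2;1, a low-affinity carrier that moves sulfate within vascular tissue, had intensities of 1283 on array 1 and 1483 on array 2 in sgr1, against 516 and 557 in wild type. The genotypes were well separated on each array. Its log2 ratio was 1.36 ± 0.069 (SD, n = 2), or 2.57-fold higher in sgr1 (limma, adjusted p = 4.62e-11), and 0.441% of all genes had a higher ratio.

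SULTR1;2, the main high-affinity carrier of root uptake, was close to background in these stems. Its intensities were 80.4 and 100.02 in sgr1, against 72.4 and 81.8 in wild type. The genotypes overlapped, and the wild-type signal was well above background on neither array, while that of sgr1 was on both. Its log2 ratio of 0.22 is thus set against a wild-type signal that was not told apart from background, and it did not pass the test (limma, adjusted p = 0.299), with a 95% interval from -0.06 to 0.50. The log ratio computed by the scanner software put it far higher, at 1.35 on array 1 and 2.99 on array 2, and with those values it passed (limma, adjusted p = 0.0139). The software's values differ from the ratios used here in more than 1 step, and the cause was not tested.

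Both ATP sulfurylase genes rose. APS1, which encodes a plastid form of the enzyme, had intensities of 4432 and 7274 in sgr1, against 3271 and 3575 in wild type. Both sgr1 values were the higher ones, but the arrays differed on the size, 0.44 (log2) on array 1 against 1.02 on array 2. The mean of 0.73 ± 0.41 (SD, n = 2) was 1.66-fold (limma, adjusted p = 0.000142). Its SD was the largest among the 10 genes, and with the ratios of the scanner software the call was lost (limma, adjusted p = 0.0649).

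APS3, another plastid form, showed a smaller spread. It had intensities of 2619 and 3040.3 in sgr1, against 1779 and 1849 in wild type, with no overlap. The log2 ratio was 0.64 ± 0.11 (SD, n = 2), or 1.56-fold higher in sgr1 (limma, adjusted p = 0.000547). In Arabidopsis, transcripts of APS1, APS3, APS4 and SULTR2;1 are targets of the microRNA miR395, which accumulates when sulfate is short. All 4 of these genes passed as higher in sgr1, as 9.92% of all genes did. APS1, APS3 and SULTR2;1 are already counted among the 10 genes chosen with earlier results known, so this count is not independent of the data. The microRNA itself was not analysed here, and its part in these ratios was not tested.

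The APS reductase genes, whose enzyme holds much of the control over flux through the reductive branch, included 2 that rose and 1 that did not pass. APR1 had intensities of 6035 and 6350.0 in sgr1, against 2897 and 3259 in wild type. Its log2 ratio was 1.01 ± 0.068 (SD, n = 2), or 2.01-fold higher in sgr1 (limma, adjusted p = 1.37e-07). Both sgr1 values were about double the wild-type ones.

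APR3 had intensities of 2058 and 2551 in sgr1, against 1647 and 1703 in wild type. The genotypes did not overlap, and the log2 ratio of 0.45 ± 0.19 (SD, n = 2), or 1.37-fold, passed the test (limma, adjusted p = 0.0165). It lay not far above the smallest change that passed for any gene, 0.38. With the ratios of the scanner software APR3 did not pass (limma, adjusted p = 0.123).

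APR2, the isoform that carries most of the reductase activity in Arabidopsis leaves, had intensities of 6046 and 7364 in sgr1, against 5319 and 5694 in wild type. The genotypes did not overlap, yet the log2 ratio of 0.28 ± 0.13 (SD, n = 2) did not pass (limma, adjusted p = 0.170). Its 95% interval ran from -0.0022 to 0.56, which leaves room for a ratio as large as that of APR3. The APR genes are close relatives, as are APS1 and APS3, and APK1 and APK2. Whether a probe also bound transcripts of a relative was not tested.

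SIR, the single gene for plastid sulfite reductase, was the only one of the 10 with a ratio below 0. Its intensities were 6287 and 5691 in sgr1, against 7175 and 6263 in wild type. The genotypes overlapped across arrays, although sgr1 was the lower one within each. The log2 ratio of -0.16 ± 0.037 (SD, n = 2) did not pass (limma, adjusted p = 0.471), and its 95% interval ran from -0.44 to 0.11. A doubling of SIR, such as that of APR1 in the step before it, lies outside this interval. The interval rests on a spread pooled over all genes of 2 arrays that may share extracts, so it is not a firm limit.

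Both APS kinase genes of the plastid forms that dominate PAPS supply for glucosinolates rose. APK2 had intensities of 1914 and 2251 in sgr1, against 519.6 and 598 in wild type. The sgr1 values were more than 3 times those of wild type on each array. Its log2 ratio of 1.90 ± 0.021 (SD, n = 2), or 3.72-fold, was the highest of the 10 genes and had the smallest SD among them (limma, adjusted p = 8.92e-16), and 0.152% of all genes had a higher ratio.

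APK1 had intensities of 3629 and 3769 in sgr1, against 1900.0 and 2098 in wild type. The genotypes did not overlap, and the log2 ratio was 0.89 ± 0.062 (SD, n = 2), or 1.85-fold higher in sgr1 (limma, adjusted p = 2.19e-06). Both kinase genes thus rose at the fork, while on the reductive side APR1 and APR3 rose and APR2 and SIR did not pass. No difference between these genes' ratios was tested.

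**Figure D2:**
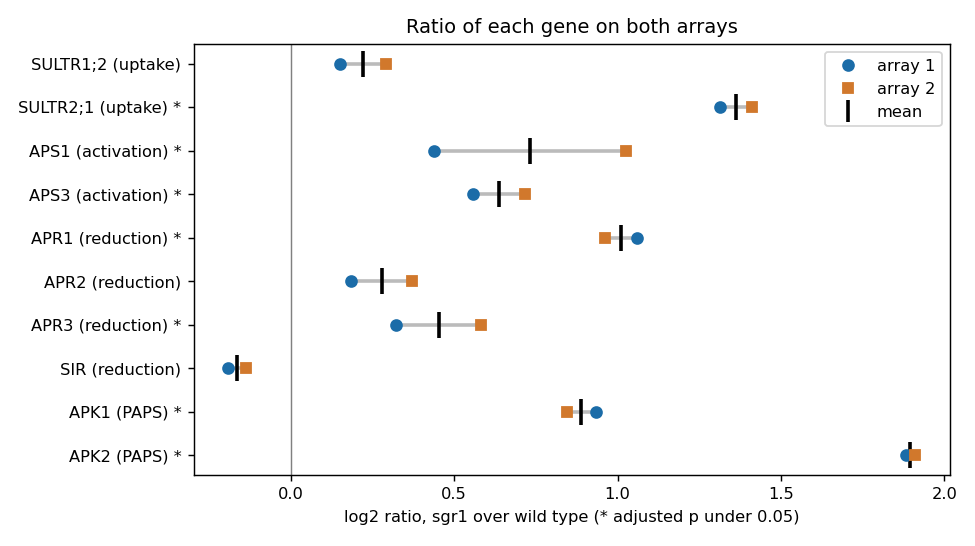
Log2 ratio of sgr1 over wild type on array 1 (circles) and array 2 (squares) for each gene, with the mean as a bar; asterisks mark genes past the threshold. Only SIR lies left of 0, and the arrays are farthest apart for APS1 (0.44 and 1.02).

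The scanner software gives each ratio an error from its own noise model, which does not depend on the spread between arrays. This error was almost the same for APR2 and SIR (0.20 for each on array 1), so it may not measure the noise of each spot. By these values SULTR2;1 had a log2 ratio of 1.49 ± 0.25 on array 1 and 1.55 ± 0.25 on array 2, and APK2 had 2.05 ± 0.28 and 2.06 ± 0.28 (software error). APR1 had 1.08 ± 0.23 and 1.02 ± 0.22. In 6 of the 10 genes the ratio was above 0 by more than 2 such errors on both arrays. Those were SULTR2;1, APS3, APR1, APK1 and APK2, and also SULTR1;2. The wild-type signal of SULTR1;2 was well above background on neither array, so that its software ratio has no measured wild-type level under it. How many of all genes met this rule was not counted, so the 6 cannot be set against the array as a whole. APS1 stood clear of 0 on array 2 (1.02 ± 0.22) but not on array 1 (0.41 ± 0.21). APR2 was within 2 errors of 0 on both arrays, and so was SIR, at -0.23 ± 0.20 and -0.18 ± 0.20.

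**Figure D3:**
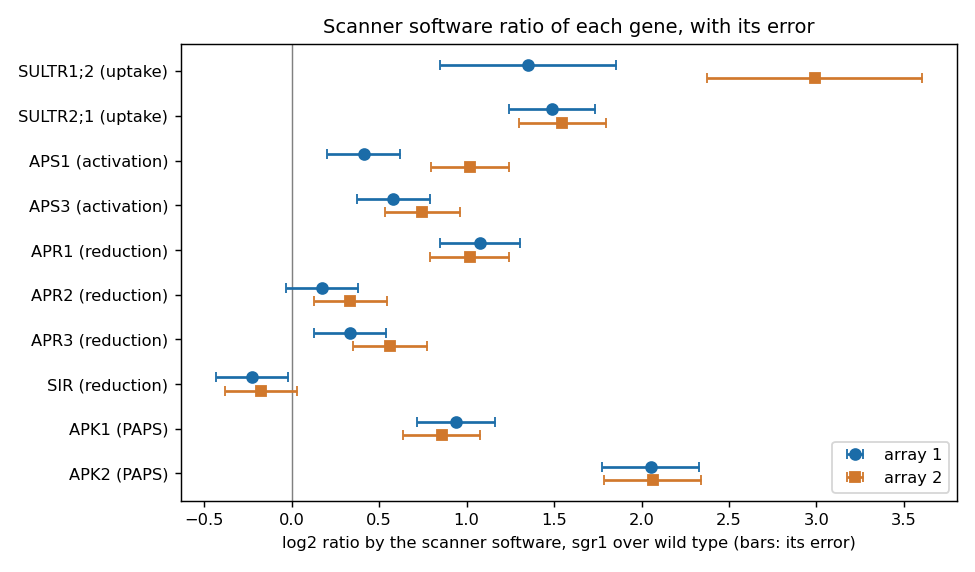
Log2 ratio of sgr1 over wild type computed by the scanner software, per gene and array, with bars for the error the software gives (plus and minus 1). SULTR1;2 has the widest bars (0.50 and 0.61) and the largest distance between arrays.

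Set against all genes, the 7 that rose lay at different distances from the bulk of the array. Besides APK2 and SULTR2;1, given above, APR1 was exceeded in mean ratio by 1.02% of genes and APK1 by 1.46%. For APS1 and APS3 the shares were 2.43% and 3.35%, and for APR3 the share was 7.28%. APR2 (15.7%) lay within the upper part of the bulk, and 74.5% of genes had a higher ratio than SIR. SULTR1;2 is given no such place, since its ratio was 0.22 or 2.17 depending on whose processing was used.

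**Figure D4:**
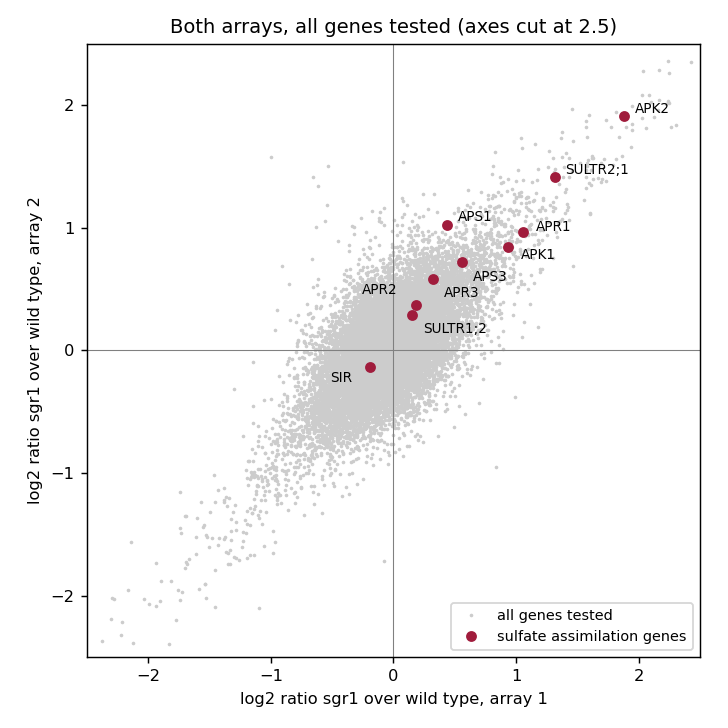
Log2 ratio of sgr1 over wild type on array 1 (x) and array 2 (y) for the 19059 genes tested (grey) and the 10 sulfate assimilation genes (red); 23 genes beyond 2.5 on either axis are not drawn. APK2 and SULTR2;1 lie far from the bulk along the diagonal, APS1 lies above the diagonal and SIR sits within the bulk.

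The other sulfate carriers did not move as a block. Of 10 listed, 8 were measured, 2 rose and 1 fell in sgr1 (9.92% and 8.98% of all genes), with a median of 0.12. SULTR3;4 rose (0.64 ± 0.084, SD over 2 arrays as in the values that follow, limma adjusted p = 0.000511), as did SULTR4;2, a carrier that releases sulfate from the vacuole (0.43 ± 0.22, adjusted p = 0.0234), and SULTR3;2 fell (-0.71 ± 0.084, adjusted p = 0.000108). SULTR3;3 (-0.37), SULTR3;1 (0.21), SULTR4;1 (0.20) and SULTR2;2 (-0.16) did not pass. The arrays differed for SULTR4;2 (0.58 on array 1, 0.28 on array 2) and in sign for SULTR2;2 (-0.58 and 0.25). SULTR1;1 and SULTR1;3 were above background in neither genotype.

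Of the remaining ATP sulfurylase and APS kinase genes, 2 of 4 rose and none fell (median 0.37), beside 9.92% and 8.98% of all genes. APS4 had intensities of 1529.6 and 1509 in sgr1, against 906 and 989 in wild type, a log2 ratio of 0.68 ± 0.10 (limma adjusted p = 0.000217). APS2, whose product lies in both plastid and cytosol, rose by 0.44 ± 0.18 (adjusted p = 0.0211). APK3 (0.30), the cytosolic kinase, and APK4 (0.19) did not pass. With APS1 and APS3, the genes of all 4 ATP sulfurylases passed as higher.

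Downstream of SIR, of 14 genes of cysteine and glutathione synthesis, all measured, none rose and 1 fell, beside 9.92% and 8.98% of all genes. Their median was 0.035, and no difference between this group and the 10 genes was tested. The one that fell was CS26, for a plastid S-sulfocysteine synthase (-0.38 ± 0.12, limma adjusted p = 0.0497), a call at the very threshold. OASB (0.38) and SERAT2;1 (0.36), for plastid enzymes of cysteine synthesis, OASA1 (0.32), for the cytosolic form, and SERAT3;2 (0.27) had the largest ratios among the rest and did not pass. The brightest probe of SERAT3;2 alone gave 0.55 and passed (limma, adjusted p = 0.00371).

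Among the genes that use PAPS or clear its by-product, 3 of 4 measured rose and none fell (median 0.82), beside 9.92% and 8.98% of all genes. SOT17, a sulfotransferase for the last step of aliphatic glucosinolate cores, had intensities of 2457 and 2920.1 in sgr1, against 520.0 and 569 in wild type, a log2 ratio of 2.30 ± 0.084 (limma adjusted p = 9.48e-19). SOT18, of the same function, rose by 1.23 ± 0.0047 (adjusted p = 1.005e-09). PAPST1, which exports PAPS from the plastid, rose by 0.41 ± 0.24 (adjusted p = 0.0352), with 0.23 on array 1 and 0.58 on array 2, and SAL1, which removes PAP, did not pass (-0.03). SOT16, of the indolic branch, was left out because its spot was marked as an outlier on 1 array, and TPST was above background in neither genotype.

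Genes induced by sulfur deficiency went both ways. Of 10 listed, 7 were measured, 3 rose and 2 fell (9.92% and 8.98% of all genes), with a median of -0.010. GGCT2;1, a glutathione-degrading cyclotransferase, rose most (1.19 ± 0.034, limma adjusted p = 2.16e-09), with wild type well above background on only 1 array. LSU2 (0.61 ± 0.18, adjusted p = 0.00102) and SDI1, a repressor of glucosinolate synthesis under sulfur shortage (0.47 ± 0.079, adjusted p = 0.0124), rose as well. SDI2 (-0.44 ± 0.055, adjusted p = 0.0201) and BGLU28, a glucosidase (-0.65 ± 0.054, adjusted p = 0.000416), fell. LSU3 (-0.20) and SHM7 (-0.01) did not pass, and LSU1, LSU4 and BGLU30 were not measured.

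Of 9 regulators, 7 were measured, 2 rose and none fell (median 0.29), beside 9.92% and 8.98% of all genes. Those that rose were MYB29 (1.88 ± 0.093, limma adjusted p = 1.32e-15) and MYB28 (0.72 ± 0.081, adjusted p = 8.97e-05), activators of aliphatic glucosinolate genes that are also known to raise transcription of genes for sulfate assimilation. MYB29 had intensities of 2225 and 2663 in sgr1, against 633 and 692 in wild type. The indolic regulators MYB51 (-0.20) and MYB34 (-0.09) did not pass, and MYB76 and MYB122 were not measured. HY5 (0.32), a light regulator that binds APR promoters, and SLIM1 (0.29), the central regulator of the sulfur deficiency response, did not pass.

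Of 5 genes for siroheme, sulfite oxidation and sulfolipid, 1 rose and none fell (median 0.20), beside 9.92% and 8.98% of all genes. UPM1, which makes the precursor of siroheme, the cofactor of SIR and of nitrite reductase, rose by 0.44 ± 0.12 (limma adjusted p = 0.0179). SIRB (0.21), the next enzyme towards siroheme, SOX (0.20), SQD1 (0.14) and SQD2 (0.02) did not pass. In all, 13 of the 49 measured genes of these 7 groups rose and 4 fell, beside 9.92% and 8.98% of all genes. The count that fell is near the share over all genes. With the ratios of the scanner software, APS2, SULTR4;2, PAPST1, UPM1, SDI1, SDI2 and CS26 did not pass, while the dim genes had larger ratios, 3.72 for GGCT2;1, -2.01 for SULTR3;2 and -1.03 for BGLU28.

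**Figure D5:**
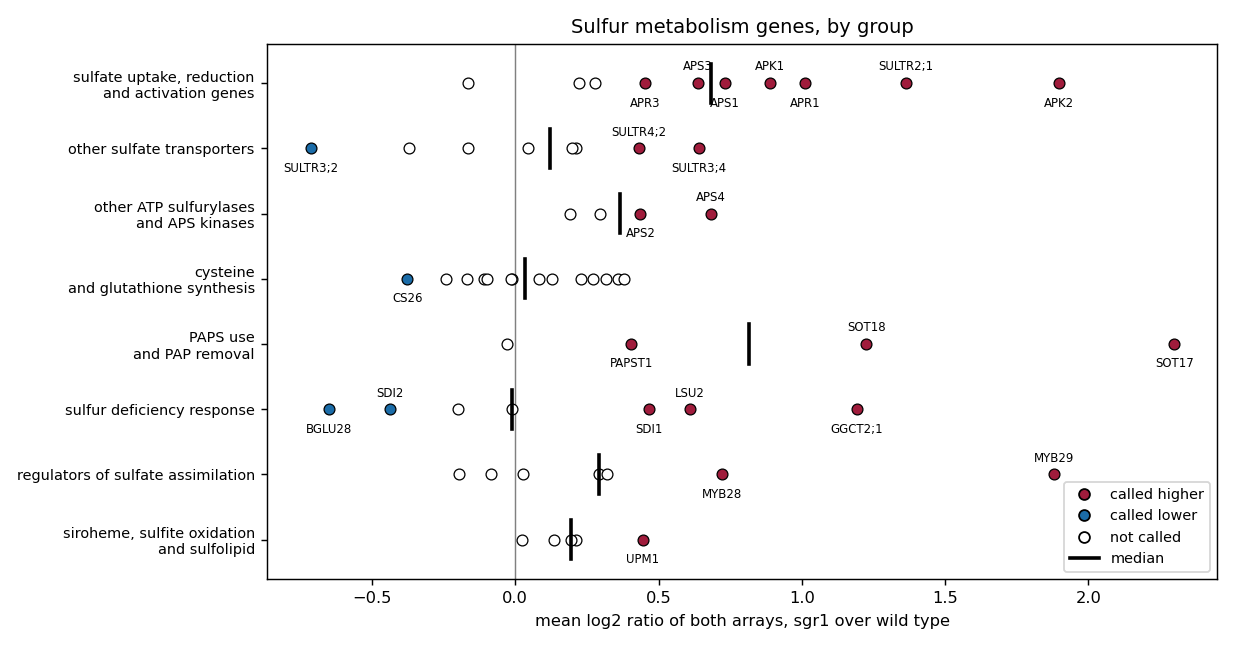
Mean log2 ratio of sgr1 over wild type (both arrays) of each measured gene, by group, with called genes filled and named and the group median as a bar. The medians are 0.68 for the 10 sulfate uptake, reduction and activation genes and 0.035 for cysteine and glutathione synthesis.

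Sulfite reductase is a plastid enzyme, and markers of green tissue differed between the arrays. The 14 markers together had summed intensities of 1240700 and 1673640 in sgr1, against 1329010 and 848146 in wild type, in the order array 1, array 2. Their median log2 ratio was -0.0023 on array 1 and 0.90 on array 2. Of the 14, 6 rose and none fell, beside 9.92% and 8.98% of all genes. Single markers ran from -1.002 (LHCB1.1) to 1.18 (LHCB2.1) on array 1. The median of the 10 sulfate genes was 0.50 on array 1 and 0.78 on array 2, and that of all genes tested was -0.035 and 0.040. APS1 (0.44 and 1.02) and APR3 (0.32 and 0.58) were higher on array 2, while of the 10 only APR1 and APK1 were lower on it. The part of the green markers' shift in the values of the sulfate genes was not tested.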

How the data were processed

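Per the file headers, the deposited intensities and log10 ratios (Cy5 over Cy3) came from Agilent Feature Extraction 9.1.3.1, which also gave the error score of each ratio and the spot flags. The authors' value table holds the same log10 ratio, equal at all 39102 spots. Per the labels, cRNA was made from 500 ng of total RNA. For the array design, a genome build is not given in the labels or headers.

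For the ratios, normexp (offset 50) was applied to the mean and background signals, followed by loess within each array in limma 3.58.1 (R 4.3.3), with control and outlier spots at weight 0. Array 1 was turned in sign, so a dye effect cancels in the mean. Loci needed at least 1 channel well above background on each array. Ratios were tested against 0 with lmFit and eBayes (1 residual and 47.7 prior degrees of freedom), two-sided, adjusted over 19059 genes. The steps were tested on simulated data with noise drawn separately for each array. That cannot show whether calls hold if the arrays share extracts. Intensities of each genotype are after loess and Aquantile. Alternatives were the offset, no background correction, median centring, scaling between arrays, the software's ratio, other filters, a trended robust fit, the brightest probe and single arrays.

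Symbols of all 10 genes were checked by locus in RefSeq's gene table. The 10 genes, the lists and the tests were chosen with earlier results of these data known. Named genes are the 10, SCR, every called gene of a list and up to 4 further measured genes with the largest mean ratio in size; marker lists are given as sums and medians, and single markers were picked after their values were seen.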

Additional observations from a re-analysis of the deposited data

How the results depend on the processing

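Each of the 10 ratios kept its direction under the settings that can move it: the offset, no background correction, median centring, scaling between arrays, the software's ratio and outlier spots kept. Aquantile, the filters, the trended fit and the brightest probe leave these ratios as they are by construction. Median centring in place of loess left 2 calls on the whole array and 0 among the 10 genes (limma, adjusted p = 0.9999 for each), although their median stayed at 0.69; the cause was not tested. The scanner software's log ratio gave 1952 calls in place of 3602, 6 of them among the 10 genes, with APS1 (0.72) and APR3 (0.45) lost and SULTR1;2 (2.17) gained; here too the cause was not tested. Under the other 9 settings the 7 calls were kept, and requiring both channels above background left out SULTR1;2. Aquantile is among these 9 and changes no ratio, so it could not change a call. Among the other sulfur genes, the call of CS26 was lost under 8 of 11 settings and that of PAPST1 also with no filter (limma, adjusted p = 0.0518). A trended, robust fit added OASB (adjusted p = 0.0459) and SULTR3;3 (0.0467). Without replicate 1 or without replicate 2 no test is possible, and the median of the 10 genes was 0.50 to 0.78, with APS1 between 0.44 and 1.02. Taking the arrays as 1 replicate keeps the means and gives no test. The ratio within each array already pairs the genotypes, so no further replicate block was fitted. Ratios near background, as for SULTR1;2 (0.22, and 0.40 with an offset of 16), depend on the offset.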
